A study of Mus musculus with 6 samples.

Results

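The genes described are the caveolins Cav1 and Cav2, the collagen genes Col1a2, Col15a1 and Col28a1, and Cped1, which encodes a protein with cadherin-like and PC-esterase domains. These 6 genes were taken by name from 53546 gene features counted in 6 mouse RNA sequencing libraries. All came from C57BL/6 mice, and by their labels 3 are controls and 3 had a spinal cord injury. These labels name spinal cord and also intervertebral disc as the tissue, while the series text speaks of retina of wild and injured mice aged 21 days. No time after injury, level of injury or treatment of the controls is given, and no label ties a library to an animal of its own. The p-values therefore reflect the spread among these libraries only, which may be technical. Values of a group are given in the order of its libraries 1, 2 and 3. The members were chosen because the exons that the count files give for them match the exons of the same gene in the mouse build GRCm38. That holds for 1740 features (3.25% of all) when at least 90% of a feature's exonic bases must lie on exons of the gene of its name, and these are called features on their own exons. For the members the share ran from 99.69% for Cped1 to 100% for Col1a2, Col15a1 and Col28a1.

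Caveolins are small membrane proteins that coat caveolae, the flask-shaped pits of the plasma membrane, and caveolin-2 needs caveolin-1 to reach the cell surface. Caveolae are abundant in endothelial cells, fibroblasts, smooth muscle cells and adipocytes. Col1a2 encodes the second chain of type I collagen, the main fibrillar collagen, which in nervous tissue is known from the meninges, vessel walls and scars. Col15a1 encodes a collagen that lies next to basement membranes of vessels and other tissues, and Col28a1 encodes a beaded collagen known from peripheral nerve.

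Cav2 and Cav1 are neighbours on chromosome 6, on the same strand, with 17219 bases between them. The files, whose build is not named, place Cav2 at chr6:17281184-17289114 and Cav1 at chr6:17306334-17341451, each 1 base before its GRCm38 position. Col1a2 lies at chr6:4504814-4541544, Col28a1 on the minus strand at chr6:7997808-8192617, Cped1 at chr6:21985915-22256403 and Col15a1 at chr4:47208161-47313167. Exons of 5 of the 6 members overlapped no exon of another counted feature, and those of Col15a1 shared 14 bases with Gm12426, an antisense gene. Counting ignored strand, so reads from antisense transcripts over member exons cannot be told apart from reads of the members.

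The bases upstream of the RefSeq start (GRCm38.p6) are shown for the caveolin pair, neighbours whose ratio differed between libraries, and for Col15a1, which had the largest fitted difference between groups. Each run is the 250 bases before a start of its gene on the plus strand, at chr6:17280935-17281184, chr6:17306085-17306334 and chr4:47207762-47208011, and capitals mark the motifs found. The motifs searched on both strands were the TATA box (TATAAA), the letters of a CCAAT box, and the core of a GC box (GGGCGG), which do not overlap here.
Cav2: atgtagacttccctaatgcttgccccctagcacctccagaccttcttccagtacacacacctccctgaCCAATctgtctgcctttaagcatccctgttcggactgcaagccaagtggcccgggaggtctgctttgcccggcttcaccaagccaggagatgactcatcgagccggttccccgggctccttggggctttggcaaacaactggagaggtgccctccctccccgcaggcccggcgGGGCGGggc
Cav1: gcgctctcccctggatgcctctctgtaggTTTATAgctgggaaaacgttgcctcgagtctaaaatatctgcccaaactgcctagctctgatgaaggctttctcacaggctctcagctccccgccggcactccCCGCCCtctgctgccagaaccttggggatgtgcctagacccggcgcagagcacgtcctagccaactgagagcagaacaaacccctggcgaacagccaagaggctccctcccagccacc
Col15a1: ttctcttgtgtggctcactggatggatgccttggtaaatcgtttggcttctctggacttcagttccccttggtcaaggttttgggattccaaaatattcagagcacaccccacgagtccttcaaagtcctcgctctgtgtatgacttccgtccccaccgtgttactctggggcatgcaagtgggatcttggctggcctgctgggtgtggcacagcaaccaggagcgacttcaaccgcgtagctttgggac
The Cav2 run held 1 CCAAT box and 1 GC box core and the Cav1 run 1 TATA box and 1 GC box core, both of the latter read on the minus strand, while the Col15a1 run held none of the 3 motifs. RefSeq gives Cav1 another start, and the 250 bases before it (chr6:17307390-17307639, not shown) held none either. Of 32851 RefSeq promoter windows of the same length, 12.4% held the TATA box letters, 33.8% those of the CCAAT box and 32.7% the GC box core. The GC content was 62% for Cav2, 59.6% for Cav1 and 53.6% for Col15a1, against a median of 52.4% over all windows. A match of letters is a description and not a known binding site.

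The libraries did not fall into their labelled groups. On the first principal component of the most variable tested features, which carried 98% of the variance, controls 1 and 2 stood at -101 and -86.3 and the other 4 libraries between 44.5 and 48.4. Total counts ran from 2385703 to 3921627. Markers were read by the GRCm38 gene that a feature lies on. This assumes that the reads were placed on GRCm38, as the files do not name their build. Of 16 neuron markers 9 were measured. They summed to 265 and 98.2 counts per 1000000 counts of the library (CPM) in controls 1 and 2. Most of that was Calb1, at 249 and 78.5 CPM. In control 3 and the injury libraries the markers summed to between 3324 and 3736 CPM, with Calb1 at 216 to 252 CPM. By contrast, 6 of 15 kidney epithelium markers summed to 3635 and 2063 CPM in controls 1 and 2 and to between 3.77 and 8.95 CPM in the other 4. Of 11 cartilage and disc markers 3 were measured, summing to at most 12.6 CPM in any library, and Krt19 was at 0 in all 6. What these differences contribute to the member genes was not tested, and in bulk tissue fewer cells of a type and less RNA per cell cannot be told apart.

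Caveolin-1 RNA was nearly level in 4 libraries and lowest in control 1. Cav1 had 23.4, 88.5 and 105 CPM across the controls and 108, 106 and 104 CPM across the injury libraries. Control 3 sat within the injury range, so the groups overlapped, and control 2 lay below it at 0.841 times control 3 (95% interval 0.716 to 0.989). Intervals of single libraries and of their ratios are exact, from the counts, and cover counting error only. They do not cover the choice of denominator. With totals times TMM normalisation factors, Cav1 was at 65.1 CPM in control 2 and 102 CPM in control 3. Col1a2 was then at 50.9 and 1157 CPM in controls 1 and 2. Over the groups Cav1 averaged 72.3 ± 43.2 CPM in the controls against 106 ± 2.23 CPM in the injury libraries (SD, n = 3 each).

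Caveolin-2 RNA separated controls 1 and 2 from the rest and also varied among the injury libraries. Cav2 had 42.1, 55.8 and 119 CPM across the controls and 116, 176 and 138 CPM across the injury libraries. The groups overlapped through control 3, and injury 2 held 1.52 times the level of injury 1 (95% interval 1.32 to 1.74). Group means were 72.2 ± 40.8 CPM for the controls against 144 ± 30.3 CPM for the injury libraries (SD, n = 3 each).

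The balance of the pair changed between libraries. Per kilobase of exon, Cav2 stood at 1.86 times Cav1 in control 1 (95% interval 1.43 to 2.43) and at 0.652 times Cav1 in control 2 (0.548 to 0.774). In control 3 and in injury 1, 2 and 3 the ratio was 1.16, 1.11, 1.71 and 1.37. Cav2 was thus the higher of the pair per length in 5 of 6 libraries, though in control 3 and injury 1 the interval included 1 (0.986 to 1.37 and 0.948 to 1.3).

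Type I collagen RNA was set apart in control 2 and, to a lesser degree, in injury 3. Col1a2 had 46.2, 1573 and 101 CPM across the controls and 136, 114 and 380 CPM across the injury libraries. Control 2 held 34.1 times the level of control 1 (95% interval 29.4 to 39.7), and injury 3 held 3.03 times that of injury 1 and 2 together (2.75 to 3.35). Control 3 was the library nearest to injury 1 and 2, which together stood at 1.24 times its level (1.07 to 1.43). With group means of 574 ± 866 CPM for the controls against 210 ± 147 CPM for the injury libraries (SD, n = 3 each), the difference between groups was smaller than the spread within the control group.

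Col15a1 and Cped1 shared the peak in control 2 with a smaller excess in injury 3. Col15a1 had 42.3, 1151 and 21.4 CPM across the controls and 28.2, 21.4 and 38.1 CPM across the injury libraries. Control 2 stood 27.2 times above control 1 (95% interval 23.3 to 31.9), and injury 3 at 1.53 times injury 1 and 2 together (1.17 to 2.01). Without control 2 the remaining 5 libraries lay between 21.4 and 42.3 CPM, and their groups overlapped.

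Cped1 had 32.1, 329 and 28.7 CPM across the controls and 34.8, 30.6 and 46.5 CPM across the injury libraries. Control 2 stood 10.3 times above control 1 (95% interval 8.53 to 12.4), and injury 3 at 1.42 times injury 1 and 2 together (1.12 to 1.81). The other 5 libraries spanned 28.7 to 46.5 CPM. Group means were 405 ± 646 (control) and 29.3 ± 8.41 CPM (injury) for Col15a1, and 130 ± 172 and 37.3 ± 8.28 CPM for Cped1 (SD, n = 3 each).

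Col28a1 was the lowest of the members, with 2, 33 and 5 counts in controls 1, 2 and 3 and 6, 7 and 18 counts in injury 1, 2 and 3. These counts amount to 0.513, 8.41 and 1.91 CPM for the controls against 2.06, 2.46 and 7.54 CPM for the injury libraries. The 2 high libraries were control 2 and injury 3, as for Col1a2. Injury 3 stood at 3.34 times injury 1 and 2 together, with an interval of 1.55 to 7.41 that reflects the few counts. Control 2 over control 1 was 16.4, with an interval of 4.19 to 141.

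**Figure D1:**
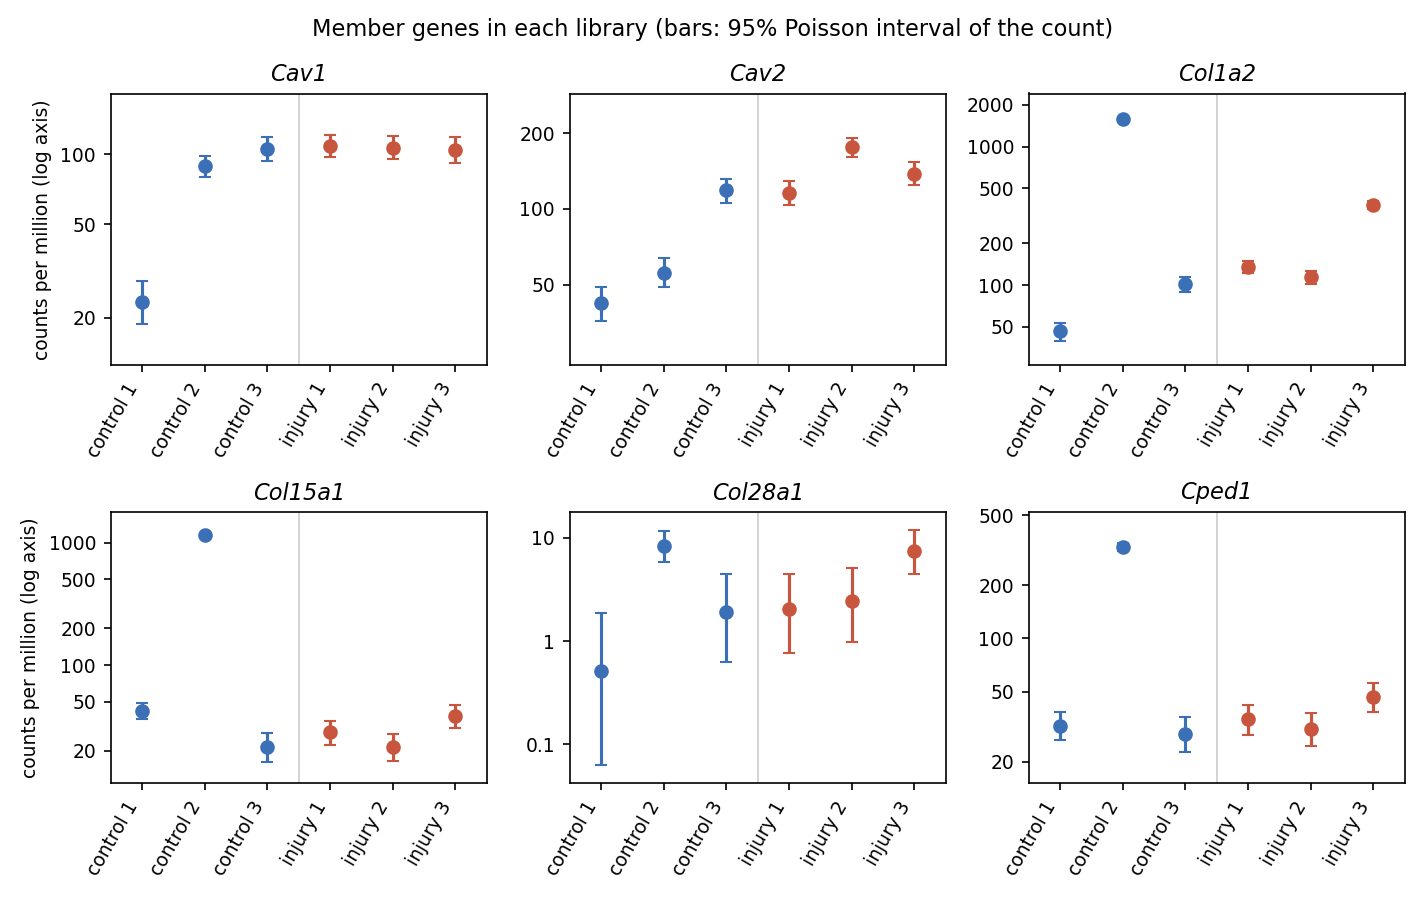
CPM (log axis, separate range for each gene) of the 6 member genes in controls 1 to 3 (blue) and injury 1 to 3 (red), with 95% exact Poisson intervals of the count as bars. Cav1 and Cav2 are lowest in controls 1 and 2, while the 3 collagen genes and Cped1 are highest in control 2, and Col1a2 reaches 380 CPM in injury 3 against 136 and 114 CPM in injury 1 and 2.

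Per kilobase of exon, the order of the members differed between libraries. In control 3 the levels were 35.5 CPM per kilobase for Cav2, 30.5 for Cav1, 8.15 for Col1a2, 3.46 for Cped1, 3.37 for Col15a1 and 0.39 for Col28a1. The same order at the top, Cav2 before Cav1 before Col1a2, was seen in injury 1 and 2, whereas in injury 3 Col1a2 (30.6) and Cav1 (30.2) were level. In control 2 Col15a1 (181) and Col1a2 (127) came first, above Cped1 (39.7), Cav1 (25.7) and Cav2 (16.7). Across the injury libraries the means per kilobase were 43.1 ± 9.1 for Cav2, 30.9 ± 0.647 for Cav1, 16.9 ± 11.9 for Col1a2, 4.61 ± 1.32 for Col15a1, 4.5 ± 1 for Cped1 and 0.82 ± 0.623 for Col28a1 (SD, n = 3). The neighbours Col15a1 and Cped1 in that order did not differ beyond their spread.

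The design sets the injury group against the control group. With all 6 libraries, 0 of the 5 members that passed the count filter were called at an adjusted p of 0.05, where 0% of 12646 tested features were called, and Col28a1 did not pass the filter. The log2 fold change was 0.78 (SE 0.49) for Cav1, 1.16 (SE 0.47) for Cav2, -1.02 (SE 1.22) for Col1a2, -3.36 (SE 1.41) for Col15a1 and -1.43 (SE 0.88) for Cped1, with edgeR adjusted p of 0.315, 0.188, 0.563, 0.197 and 0.308. At an unadjusted p under 0.05, 3245 of the 12646 tested features were found. Of the 5 tested members only Cav2 was among them, which is no more than the background. Limma-voom called 0 features. DESeq2 called 1225 of 14857 tested features, 6 higher and 1219 lower, among them no member. With so small a share called, this says little about the members, and DESeq2 gave no p for Col1a2 and Col15a1. With sample quality weights limma-voom found 7040, which is 55.7% of the features tested, and Cav1, Cav2, Col15a1 and Cped1 were in that set.

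Without control 3 the comparison rests on controls 1 and 2, and the caveolins and Col15a1 then went in opposite directions. Cav1 (log2 fold change 1.55, SE 0.41, edgeR adjusted p 0.0138) and Cav2 (2.06, SE 0.29, adjusted p 0.00133) were higher in the injury libraries than in these 2 controls. Col15a1 was lower (-3.6, SE 1.01, adjusted p 0.0181), while Col1a2 (-1.18, SE 1.1, adjusted p 0.374), Cped1 (-1.57, SE 0.7, adjusted p 0.0866) and Col28a1 (0.49, SE 0.97, adjusted p 0.67) did not pass. In this fit 66.8% of 15320 features were called, 30.2% higher and 36.6% lower, so 3 calls among 6 members are no more than the background. Controls 1 and 2 are also the libraries with kidney epithelium marker sums of 3635 and 2063 CPM and low neuron marker sums, so in this fit injury and the make-up of these libraries cannot be told apart. The calls of Cav1 and Cped1 depended on the features fitted. With features on their own exons alone, a fit chosen after seeing the data that called 61.6% of 510 features, edgeR gave Cav1 a log2 fold change of 0.44 (SE 0.45, adjusted p 0.441) and Cped1 one of -2.7 (SE 0.83, adjusted p 0.0375). Col28a1 was at -0.62 there (SE 1.06, adjusted p 0.646), and Cav2 and Col15a1 passed again. Counted by overlying gene, Cav1 was at 1.06 (SE 0.41, adjusted p 0.0679).

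The lower value of Col15a1 after injury rested on control 2. With control 1 as the only control, a fit chosen after seeing the data that assumes the lone control varies like the injury libraries, Col15a1 had a log2 fold change of -0.34 (SE 0.24, edgeR adjusted p 0.19). In that fit Col1a2 was higher in the injury libraries, by 2.39 (SE 0.38, adjusted p 4.79e-07), as were Cav1 by 2.38 (SE 0.22, adjusted p 1.16e-12) and Cav2 by 1.97 (SE 0.22, adjusted p 3.57e-10), where 79.1% of 15912 features were called. Col28a1 also passed as higher (adjusted p 0.00687), against 2 counts in control 1. Leaving out control 2 alone gave 1.56 for Col1a2 (SE 0.72, adjusted p 0.35), so its sign changed with that library. It also turned positive with all 6 libraries under limma-voom (0.11, SE 1.14) and with a replicate block (0.4, SE 1.4).

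Against control 3 alone, which resembled the injury libraries, 0 of 6 members passed, where 6.78% of 13857 features were called, 1.05% higher and 5.72% lower. All 6 log2 fold changes were positive, at 0.14 for Cav1, 0.4 for Cav2, 1.18 for Col1a2, 0.56 for Col15a1, 1.13 for Col28a1 and 0.49 for Cped1, with edgeR adjusted p between 0.0891 (Col1a2) and 0.637 (Cav1). Without injury 3 the value for Col1a2 was 0.46 (SE 0.21, adjusted p 0.175). The fit takes the single control to have the spread of the injury group. All 6 values share that control, so their common sign is not 6 separate observations. The median log2 fold change over all features was -0.028. Features on their own exons held 9.68% of the counts in control 3 and 9.9% to 10.9% in the injury libraries.

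**Figure D2:**
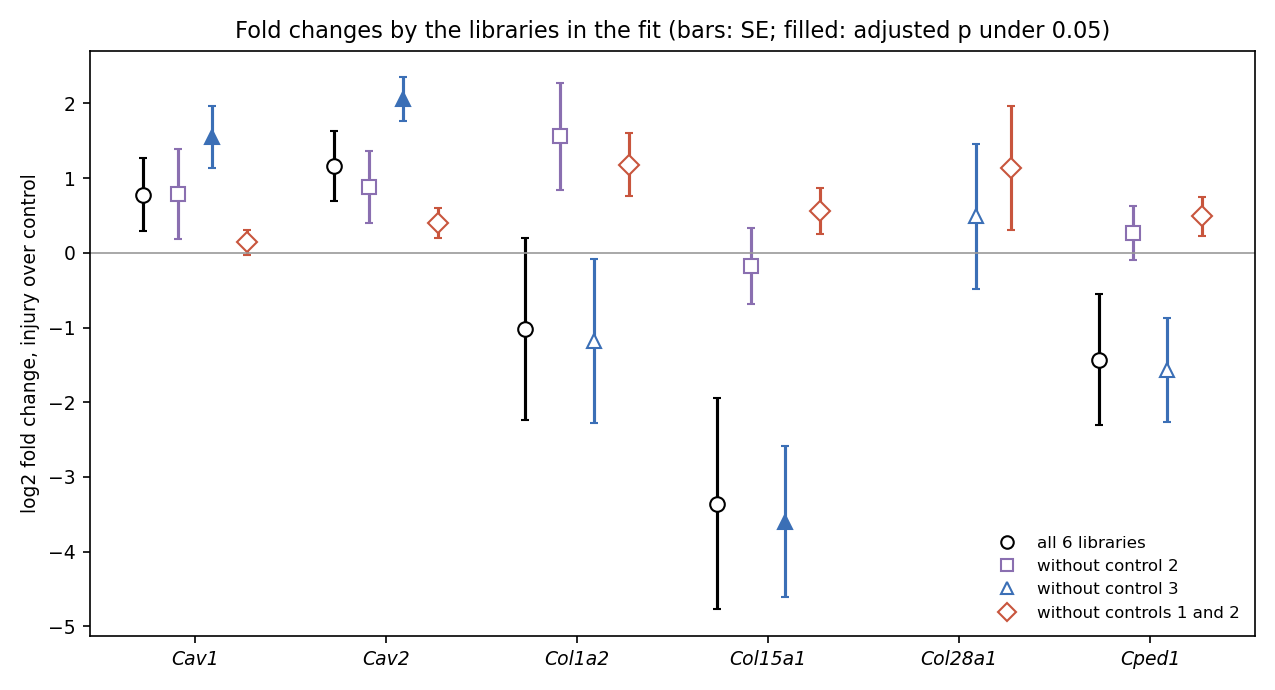
Log2 fold change of injury over control (vertical axis) for the 6 members in 4 edgeR fits that differ in the libraries used, with SE as bars and filled symbols where the adjusted p was under 0.05. The values of Col1a2 and Cped1 lie below 0 in the 2 fits that hold control 2 and above 0 in the other 2, and the filled symbols are Cav1, Cav2 and Col15a1 in the fit without control 3.

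Within the injury group, Col1a2 was among the genes that varied most. Among 367 features on their own exons with at least 5 CPM on average after injury (predicted genes left out), the highest injury library stood at a median of 1.18 times the lowest. The ratio was 3.34 for Col1a2, reached or passed by 2 features including itself, 1.78 for Col15a1 (11 features), 1.52 for Cav2 and Cped1 (31 and 30 features) and 1.04 for Cav1 (353 features). These counts describe the libraries and are not a test.

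The members that were high in control 2 were also those that were high in injury 3. On the scale of log2(CPM + 1), control 2 minus control 1 was 5.06 for Col1a2, 4.73 for Col15a1 and 3.32 for Cped1, against 1.88 for Cav1, 0.4 for Cav2 and a median of 0.41 over 389 features on their own exons. Injury 3 minus the mean of injury 1 and 2 was 1.6 for Col1a2, 0.6 for Col15a1 and 0.5 for Cped1, against -0.05 for Cav1, -0.08 for Cav2 and a median of -0.03. Col1a2 had the highest value of all features on both measures.

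**Figure D3:**
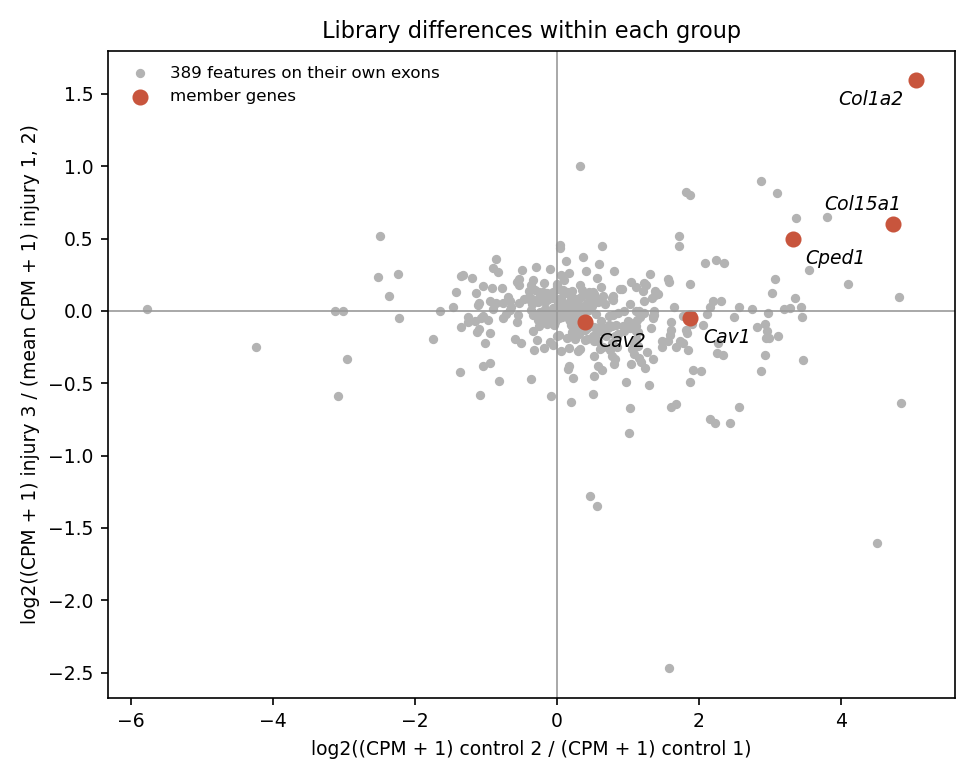
Each grey point is 1 of 389 features on their own exons with at least 5 CPM on average, with control 2 against control 1 on the horizontal axis and injury 3 against the mean of injury 1 and 2 on the vertical axis, both as log2 ratios of CPM + 1. Col1a2, Col15a1 and Cped1 (red) lie at the upper right, at 5.06 and 1.6 for Col1a2, and Cav1 and Cav2 near the level of 0 on the vertical axis. Col28a1 is not drawn because its mean was under 5 CPM.

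Genes of the same matrix were read by the GRCm38 gene that a feature lies on, since of 11 fibrillar and 33 other collagen genes only the 3 members lie on their own exons. In this reading a gene is given the counts of each feature that shares 100 or more exonic bases with known genes, 90% or more of them with that gene. It assumes that the reads were placed on GRCm38, which the sources used here do not state. Parts of a gene may go uncounted, and some genes were read from few bases. Among them were Col24a1 (100 bases), Col4a2 (102), Col18a1 (128) and Serpinh1 (205). The 90% covers only bases shared with known exons, so reads on other bases of a feature are also credited to the gene. Under that assumption Col1a1, the partner chain of Col1a2 in type I collagen, had the same 2 highest libraries. Counted through the feature named Itga3 at chr11:94935300-94967627, Col1a1 had 10, 645 and 13.4 CPM across the controls and 15.5, 11.6 and 174 CPM across the injury libraries. These were control 2 and injury 3.

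Control 2 was the highest of the 6 libraries for most collagens with at least 5 CPM on average. This held for 7 of 8 fibrillar collagens and 9 of 11 other collagens, against 39.3% of the 4959 genes past the same minimum. The exceptions were Col11a2, Col19a1, which had 0.765 CPM in control 2 and 11.3 to 16.8 CPM in control 3 and the injury libraries, and Col4a3, highest in control 1 at 181 CPM. Injury 3 was above injury 1, injury 2 and control 3 for 4 of the 8 and 5 of the 11, against 18.1% of those genes. These counts were chosen after seeing the data and describe the libraries without a test. The minimum is a mean over the 6 libraries, so a gene can pass it through control 2 alone. Col5a1 did so, with 93.8 CPM in control 2 and 1.15 to 4.61 CPM elsewhere. So did Col6a4, with 56.6 CPM in control 2 and 0 to 2.29 CPM elsewhere. Col4a3 counts for injury 3 at 0.419 CPM, against 0 to 0.382 CPM in injury 1, injury 2 and control 3. Col14a1 (12.8 and 106 CPM in controls 1 and 2) and Col18a1 (58.3 and 142 CPM) count for injury 3 at 3.77 and 2.93 CPM. In injury 1, injury 2 and control 3 they had 1.4 to 3.44 and 1.05 to 2.06 CPM. The rest of the 5, Col15a1 and Col4a1, had 38.1 and 8.8 CPM in injury 3. Col5a2, a chain that joins type I fibrils, had 67.2, 295 and 14.5 CPM across the controls and 14.1, 10.9 and 19.3 CPM across the injury libraries. Col12a1, a collagen on the surface of type I fibrils, had 531 CPM in control 2, and the other 5 libraries held 32.3 to 78.8 CPM.

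In the edgeR fits by overlying gene, 0 members of the collagen lists passed with all 6 libraries or against control 3 alone, where 0% of 4874 and 0.549% of 5100 genes were called. Without control 3, 1 of 8 tested fibrillar collagens rose and 4 fell, with a median log2 fold change of -1.84 against -0.08 over all genes, and 59.7% of 5376 genes were called in either direction. Col5a1, Col5a2, Col24a1 and Col27a1 fell, and Col11a2, a chain of cartilage collagen, rose by 4.28 (SE 0.5, adjusted p 0.00139). Of 12 tested other collagens 1 rose and 8 fell (median -3.35), among them the basement membrane chain Col4a1 (-3.52, SE 0.33, adjusted p 7.7e-04). In that fit 28.1% of genes were called higher and 31.7% lower.

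Of 10 tested basement membrane genes 0 rose and 9 fell (median -2.17), including the laminin chain Lama5 (-5.59, SE 0.28, edgeR adjusted p 2.1e-04). Of 10 tested genes of collagen synthesis and crosslinking 3 rose and 3 fell (median -0.42), and of 12 other matrix glycoproteins and proteoglycans 2 rose and 2 fell (median -0.34). Among the first, the collagen chaperone Serpinh1 fell (-2.22, SE 0.72, adjusted p 0.0405) and Sparc, a collagen-binding glycoprotein, rose (3.21, SE 0.94, adjusted p 0.0281). Each of these 3 lists had 0 calls with all 6 libraries and 0 against control 3 alone.

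Of 6 tested caveolin, cavin and caveola genes 2 rose without control 3 and 0 fell (median 1.31), close to the 28.1% of all genes called higher in that fit. These were Cav2 and Cavin3, a coat protein of caveolae, with 1.03, 12.2 and 22.6 CPM across the controls and 35.1, 27.7 and 38.1 CPM across the injury libraries. Cavin1, the coat protein that caveolae require, had 2.57, 23.2 and 8.03 CPM across the controls and 17.9, 11.2 and 15.5 CPM across the injury libraries, and did not pass (log2 fold change 0.4, SE 0.73, edgeR adjusted p 0.659). With all 6 libraries and against control 3 alone 0 of the 6 passed. Of this list Cav1, Cav2 and Cavin4 lie on their own exons. By name, 3 of these 3 were higher without control 3 (median 2.06), where 30.2% of features were called higher. Cavin4 had 0.257, 3.31 and 12.2 CPM across the controls and 6.54, 4.57 and 4.61 CPM across the injury libraries.

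Markers of fibroblasts and meningeal cells moved with some of the members in injury 3, and only part of them did so in control 2. Of 10 fibroblast and meningeal markers 5 were measured by overlying gene, summing to 159, 1167 and 935 CPM across the controls and 920, 1055 and 2022 CPM across the injury libraries. Injury 3 was the highest of the injury libraries and control 3 for 4 of the 5, and 18.1% of genes showed that order. These were Col1a1 and Dcn (decorin, a collagen-binding proteoglycan), which also stand in the matrix lists, with Dcn at 27.7 CPM against 4.97 to 8.08 CPM, and Slc6a13 (a transporter of meningeal cells) at 14.7 against 1.91 to 2.81, and Ptgds (prostaglandin D synthase) at 1712 against 788 to 937 CPM. Pdgfra was lowest in injury 3 of these 4 libraries, at 93.5 CPM against 94.8 to 108 CPM. Control 2 was the highest of the 6 libraries for 3 of the 5, against 39.3% of genes. Ptgds was at 1.28 and 22.4 CPM in controls 1 and 2, so the list sum in control 2 came from its other members. Slc6a13 was highest in control 1, at 64.4 CPM against 30.3 CPM in control 2, unlike Col1a2. The part of these markers in the level of Col1a2 was not tested.

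Summed endothelial and mural markers were highest in control 2 and did not separate injury 3. The 4 of 13 endothelial markers measured summed to 73.9, 366 and 55.8 CPM across the controls and 44.4, 39.7 and 50.3 CPM across the injury libraries, with Pecam1 at 244 CPM in control 2. The 4 of 9 mural markers summed to 76.7, 283 and 27.1 CPM across the controls and 34.8, 23.5 and 26 CPM across the injury libraries. Leukocyte markers, 5 of 9 measured, also had their highest sum in control 2, at 721 CPM against 83.8 to 174 CPM in the other 5 libraries. Singly, the measured markers of these lists were highest in control 2 except Kcnj8, Aif1 and Pax5. Kcnj8 was highest in control 1 (5.39 against 3.31 CPM in control 2), Aif1 in injury 1 (31 against 29.6) and Pax5 in injury 3 (7.96 against 3.31). None of these sums ordered the 6 libraries as Cav1 or Cav2 did, and their part in the member genes was not tested.

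**Figure D4:**
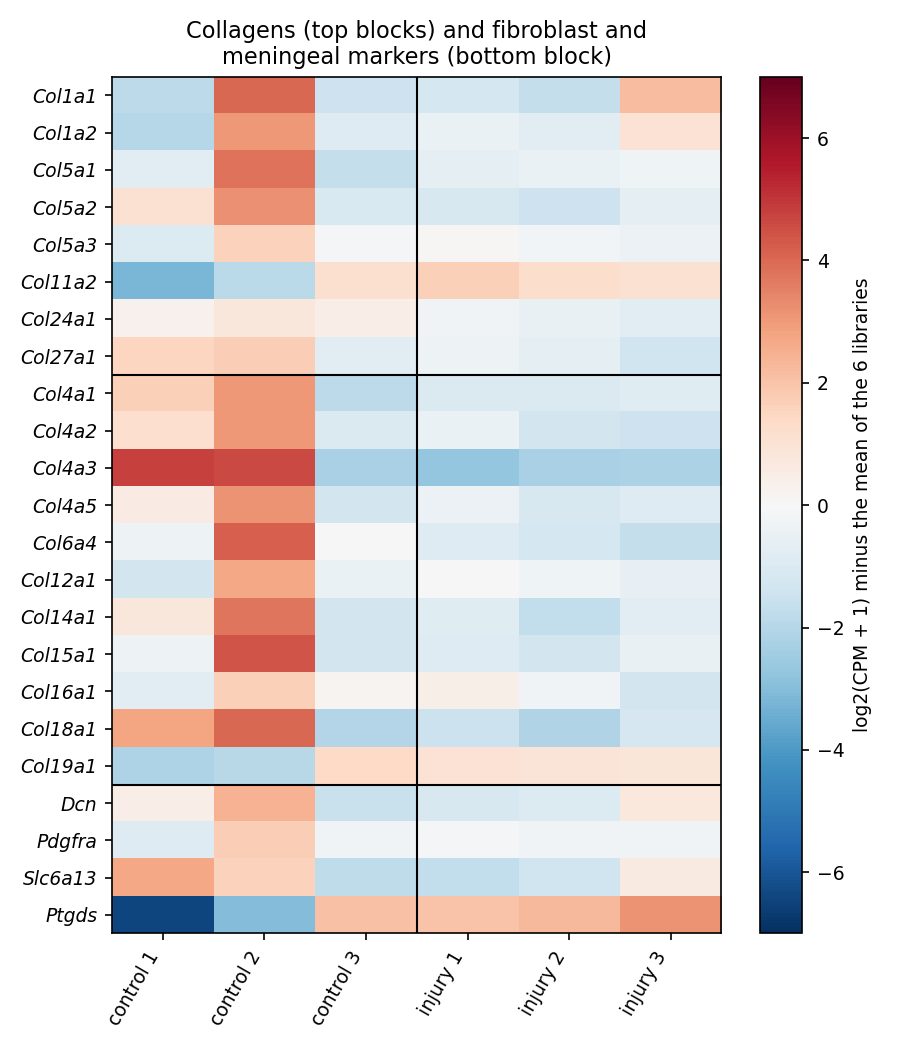
Log2(CPM + 1) minus the gene's mean over the 6 libraries (colour) for 23 genes read by overlying gene and reaching 10 CPM in some library, with fibrillar collagens, other collagens and fibroblast and meningeal markers as blocks from top to bottom. The column of control 2 is red for most collagens. In injury 3 Col1a1, Col1a2, Dcn, Slc6a13 and Ptgds are red, with Col1a1 at 174 CPM there against 15.5 and 11.6 CPM in injury 1 and 2. Col11a2 and Col19a1 are red there too. These genes and Ptgds are also red in control 3, injury 1 and injury 2, and Slc6a13 is redder in control 1 than in injury 3.

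Profiles over the 6 libraries were compared as the mean absolute difference of centred log2(CPM + 1), among 388 other features on their own exons with at least 5 CPM on average. Between members the closest pair was Cav1 and Cav2 (0.39), followed by Col1a2 with Cped1 (0.51), Col1a2 with Col28a1 (0.6) and Col15a1 with Cped1 (0.65), and the most distant was Cav2 with Col15a1 (1.99). The gene most like Col15a1 was Svep1, an extracellular matrix protein, at 0.43. Svep1 had 89.1, 767 and 19.9 CPM across the controls and 16.2, 17.2 and 30.2 CPM across the injury libraries. For Col1a2 it was Cped1, followed by Colec12, a scavenger receptor, at 0.56 and Spaar at 0.61. For Cped1 it was Colec12 (0.27), with 402 CPM in control 2 and 33.4 to 73.4 CPM elsewhere.

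The caveolins had closer neighbours outside the matrix genes. Fut9, a fucosyltransferase, was nearest to Cav2 (0.09), and Trmt10b, a tRNA methyltransferase, to Cav1 (0.12). Col28a1 was nearest to Tpm2, a tropomyosin of muscle fibres (0.26), which had 18, 138 and 49.3 CPM across the controls and 53.3, 40.4 and 88 CPM across the injury libraries. The remaining nearest genes were Rad1 and Tmem209 for Cav1, Rragd and Ndufaf4 for Cav2, Kcp and Asb15 for Col15a1, Spaar and Rad54b for Col28a1, and Arhgef39 and Kcp for Cped1. With 6 libraries of which 2 stand apart, many features share such profiles.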

How the data were processed

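RNA was taken up in Trizol and libraries were prepared with a TruSeq kit, per the labels' protocols. The deposited counts are the authors' featureCounts 2.0.1 output for read pairs, with no use of strand, per the file headers. The submitters' processing notes name Bowtie 0.12.2, mm8 and mm9, and the series text names BWA and TopHat. Which of these lies behind the counts is not given in the sources used here. File exons were compared with GENCODE M21 (GRCm38) without converting coordinates.

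CPM is a count over the library's summed count, times 1000000. Injury was compared with control in edgeR 4.0.16 (R 4.3.3) by its quasi-likelihood test with TMM factors, filterByExpr and no covariate. Benjamini-Hochberg adjustment ran over all features tested, with calls at 0.05, and SE was taken from the F statistic. Code was tested on simulated counts. Alternatives were other scalings and filters, DESeq2 1.42.0, limma-voom (limma 3.58.1), a replicate block and subsets of libraries. The fits by overlying gene, with control 1 alone, and without controls 1 and 2 and injury 3 were added after seeing the data. Members and gene lists were chosen with earlier results of these data known. The text names the members, some genes of each list and the 3 most alike per member. List genes in the reading by overlying gene were chosen with their values in view.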

Additional observations from a re-analysis of the deposited data

How the results depend on the processing

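With all 6 libraries the count of called features stayed at 0 under RLE, upper quartile and total count scaling, both other filters, limma-voom, the replicate block, an adjusted p of 0.01, removal of the 10 most abundant features and restriction to features on their own exons. It was 1225 with DESeq2 and 7040 with limma-voom with sample quality weights. Leaving out 1 library gave 0 to 10231 called features, with 10231 only without control 3, and 939 were called without controls 1 and 2. Fits added later called 12593 without controls 2 and 3, 907 without controls 1 and 2 and injury 3, and 314 of 510 without control 3 on features on their own exons. The cause was not tested. Cav1 and Cav2 had positive fold changes in the fits of features by name, but of 0.10 to 2.38 and 0.40 to 2.06. By overlying gene they were also positive, but down to 0.07 and 0.33 without controls 1 and 2. With all 6 libraries on their own exons Cav1 was at 0.10 (SE 0.43) and Cav2 at 0.53, and without control 1 Cav1 was at 0.40. Col1a2 turned positive with limma-voom (0.11), with the replicate block (0.40), without control 2 (1.56), without controls 1 and 2 (1.18), without controls 2 and 3 (2.39) and without controls 1 and 2 and injury 3 (0.46). Col15a1 turned positive without controls 1 and 2 (0.56, or 0.37 also without injury 3). Cped1 did so without control 2 (0.27), controls 1 and 2 (0.49), controls 2 and 3 (0.41) and controls 1 and 2 and injury 3 (0.34). DESeq2 gave no adjusted p for Col1a2 and Col15a1. Same-numbered libraries deviated from their group means with correlations of 0.07, -0.14 and 0.06, so the replicate numbers were not taken as pairs, and with the replicate block 0 features were called. Leaving out 1 library gave -1.56 to 1.56 for Col1a2, -3.88 to -0.18 for Col15a1 and -1.85 to 0.27 for Cped1. Col15a1 was at -1.65 with limma-voom and -1.37 with the block. The median log2 fold change of all features was -0.044 with TMM, -0.21 with upper quartile and -0.304 with total count scaling. Of 72 levels recomputed with 2 other denominators 66 moved by less than the SD of their group, and the 6 others were Cav1 after injury, at 113 to 125 CPM. The control SDs were 56.5% to 160% of the mean, so large moves could stay under them. Col1a2 in control 2 went from 1573 CPM to 1157 CPM with totals times TMM factors, and to 1959 CPM without the 10 most abundant features. Cav2 in controls 1 and 2 went from 42.1 and 55.8 CPM to 46.4 and 41.1 CPM with TMM factors, so their order turned. Totals of 2385703 to 3921627 counts leave Col28a1, at 2 to 33 counts, with wide intervals.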

Other observations

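The columns of the authors' deposited table that are named FPKM are not on that scale. Their divisor equals the square of the library's total, with totals in units of 1000000 counts (15.1812 in control 1 and 5.69158 in injury 3), so a library is divided by its total a second time and shallow libraries appear higher. For Cav1 these columns give 1.74, 6.55 and 11.7 for the controls, then 10.8, 10.8 and 12.7 for the injury libraries, where CPM per kilobase gives 6.78, 25.7, 30.5, 31.5, 30.9 and 30.2. The mean of the injury libraries over that of the controls was 1.72 in those columns and 1.47 in CPM for Cav1, and 0.545 and 0.366 for Col1a2. The count columns of the same table differed from the count files in 0 cells.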
